A study of Sus scrofa with 4 samples.

Results

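The genes described here are the metalloproteinases that cut matrix and cell-surface proteins, and their inhibitors: every row of the count tables whose symbol is MMP, TIMP, ADAM or ADAMTS followed by a number only. This rule gave 61 of the 35670 genes listed, namely 19 MMP, 3 TIMP, 20 ADAM and 19 ADAMTS genes. The RNA was from fetal fibroblasts of pig skin, all of them serum-starved, a kind of cell that serves as nuclear donor in cloning. There were 2 control libraries of WT genotype and 2 libraries of the genotype BRG1-overexpressed, and all 4 titles carry pTK-642, a name that no label explains. BRG1, encoded by SMARCA4, is the ATPase of a chromatin remodelling complex, and the study asked what more of it does to donor cells. The labels give neither fetal age, nor the promoter driving BRG1, nor whether replicates are separate cultures, so a p-value covers no more than the spread among these 4 libraries, which may be technical.

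Gene reads summed to 34486400 to 38126860 per library. Levels are CPM (reads of a gene relative to all gene reads, in units of 1e-06), scaled by library size and TMM factors, and are not divided by transcript length, so levels of different genes are not compared. SMARCA4 itself was at 154 and 179 CPM in the controls and 159 and 163 CPM in the libraries labelled BRG1 (log2 fold change -0.04 ± 0.11 SE; adjusted p = 0.765), so it does not check the label. Fibroblast markers were abundant: all 9 of the listed markers that were analysed passed 10 reads. Their summed levels were 26950 and 31412 CPM in controls and 47548 and 47910 CPM in the libraries labelled BRG1. Of the 9 markers 6 rose, where 21.0% of all genes tested were called higher. FN1 alone went from 2770 ± 817 to 12366 ± 224 CPM (SD, n = 2). VIM, COL3A1 and PDGFRB went the other way and were not called (log2 fold changes -0.27, -0.21 and -0.22). Markers of smooth muscle and myofibroblasts rose in 4 of 6 genes, from summed levels of 144 to 159 CPM to levels of 829 to 877 CPM. Leucocyte markers, of interest because leucocytes also make MMP and ADAM proteases, summed to 1.54 and 2.96 CPM in controls and 3.16 and 3.47 CPM in the libraries labelled BRG1. PTPRC and LYZ were at 0 in all 4. Of the 7 markers only CD68 and ITGAM had enough reads to test, and they were not called. Of 6 epithelial markers analysed, KRT5 and KRT8 were at 0, the summed level stayed between 0.178 and 0.962 CPM, and 1 was called: EPCAM, which fell from 0.511 ± 0.158 to 0.0516 ± 0.0352 CPM (SD, n = 2; adjusted p = 0.0162). In the libraries labelled BRG1, 10 reads equal 0.255 and 0.267 CPM. EPCAM was under that there, so it could enter the test only through the controls, where it was high. Of 5 endothelial markers only PECAM1 was called, and it rose from 2.86 ± 0.533 to 6.68 ± 0.534 CPM. VWF went the other way, from 1.75 ± 0.842 to 0.718 ± 0.00524 CPM, and was not called, and the others had too few reads to test. Of 5 melanocyte markers only MITF was called, and it rose from 7.73 ± 0.0972 to 16.7 ± 0.260 CPM. PMEL and MLANA were lower and TYR and DCT higher in the libraries labelled BRG1, all with too few reads to test. The part of these markers in the results below was not tested.

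MMPs are secreted or membrane-bound zinc proteases made as inactive proenzymes, and together they can digest collagens and most other matrix proteins. ADAMs are membrane proteases that release growth factors, cytokines and receptors from the cell surface, and ADAMTS enzymes are secreted relatives that cut proteoglycans or trim procollagens and microfibril proteins. TIMPs bind and block them with overlapping preferences. Fibroblasts are a main source of all 4 groups in skin, and inflammatory cytokines are well known inducers of several MMPs.

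Of the 61 genes, 42 had 10 or more reads in at least 2 libraries, and these same 42 were tested. At an adjusted p below 0.05 (edgeR quasi-likelihood test, Benjamini-Hochberg adjustment over all 14617 genes tested), 17 rose and 13 fell in the libraries labelled BRG1, or 71.4% of those tested. Over all genes tested 44.6% were called, 21.0% as higher and 23.6% as lower. The tested members had a median level of 5.94 on the log2 CPM scale against 4.15 for all genes tested, and the part of level in the share called was not tested. At least 2-fold, 11 rose and 8 fell, where 8.67% and 6.27% of all genes did. The groups did not overlap for 35 of the 42, nor for 73.2% of all genes tested. In bulk RNA a lower share of cells that make a transcript and less of it per cell cannot be told apart.

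The split depended in part on scaling. With library size alone, which moved the median of all genes tested from 0.02 to 0.24 on the log2 scale, 22 members were higher and 10 lower, where 33.0% and 14.6% of all genes were. No called member changed direction in any of the up to 13 alternative fits. Without library 1 labelled BRG1, 14 were higher and 10 lower, where 12.6% and 14.3% of all genes were called. Without library 2 the members' counts were 13 and 11, and the shares of all genes 13.0% and 14.8%. In those fits the spread comes from the controls alone.

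**Figure D1:**
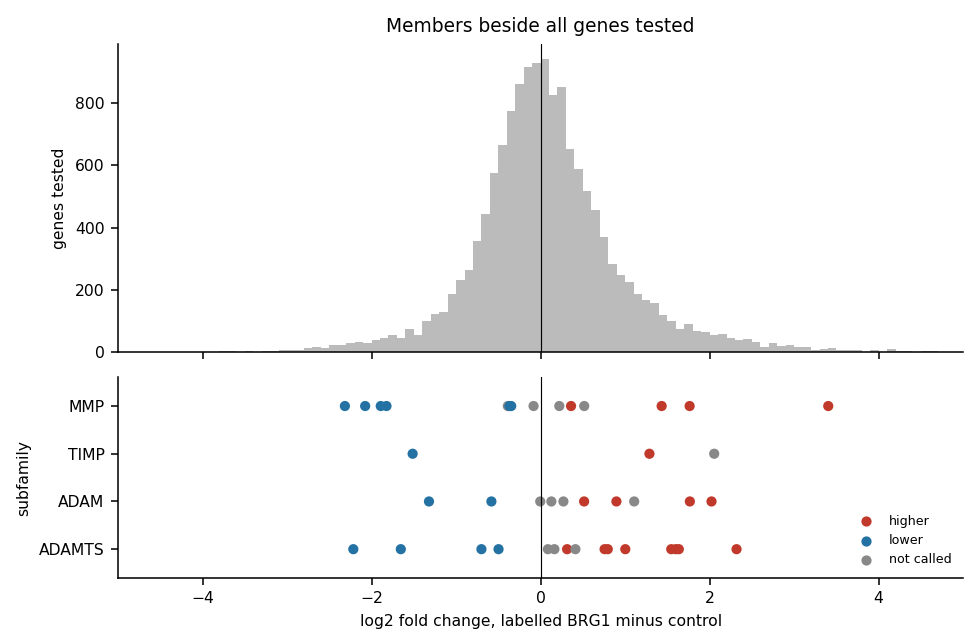
The upper panel counts all genes tested by log2 fold change (libraries labelled BRG1 minus control, x axis cut at 5 on either side, beyond which lie 34 genes), and the lower panel places each of the 42 tested members in its subfamily, coloured by call. Members lie on both sides of 0 in every subfamily.

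The secreted collagenases and stromelysin of the MMP group fell most. MMP1, the interstitial collagenase that makes the first cut in fibrillar collagen, was at 4177 and 3664 CPM in the controls and 800.2 and 775 CPM in the libraries labelled BRG1. Its log2 fold change was -2.32 ± 0.12 (SE; 4.98-fold lower; adjusted p = 2.94e-09). MMP13, the other collagenase with enough reads, was at 26.3 and 24.5 CPM against 7.39 and 6.30 CPM (-1.89 ± 0.15; adjusted p = 1.82e-07). MMP3, a stromelysin that cuts proteoglycans and other MMP proenzymes, was at 227 and 189 CPM against 51.7 and 47.1 CPM (-2.08 ± 0.12; adjusted p = 4.06e-09). MMP12, an elastase best known from macrophages, was at 28.7 and 22.9 CPM against 6.63 and 7.93 CPM (-1.82 ± 0.17; adjusted p = 5.69e-07). For each of these 4 genes both controls lay above both libraries labelled BRG1 by a wide gap, and the call held in all 13 alternatives, with log2 fold changes from -2.42 to -2.07 for MMP1 and from -1.99 to -1.59 for MMP12.

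These 4 genes also lie close together. On chromosome 9 of Sscrofa11.1 the RefSeq annotation places 8 MMP genes between 33214590 and 33616700, a stretch of 402 kb, in the order MMP7, MMP20, MMP27, MMP8, MMP1, MMP3, MMP12 and MMP13. The 4 at one end (MMP1 at 33411738 to 33420205, MMP3 at 33446969 to 33453995, MMP12 at 33473625 to 33483630 and MMP13 at 33549003 to 33616700) all fell, by 3.54-fold to 4.98-fold. The 4 at the other end had almost no reads in any library: MMP20 had 0, MMP7 had 1 read in all, and MMP8 and MMP27 had at most 1 read in each library other than library 2 labelled BRG1, which held 6 and 8. The shared direction is a description of 4 genes at one end of a cluster, with 65.4 kb between MMP12 and MMP13, which are related in sequence, and reads aligned to more than 1 place, 1.42% to 1.80% of a library, were listed apart from the gene counts.

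**Figure D2:**
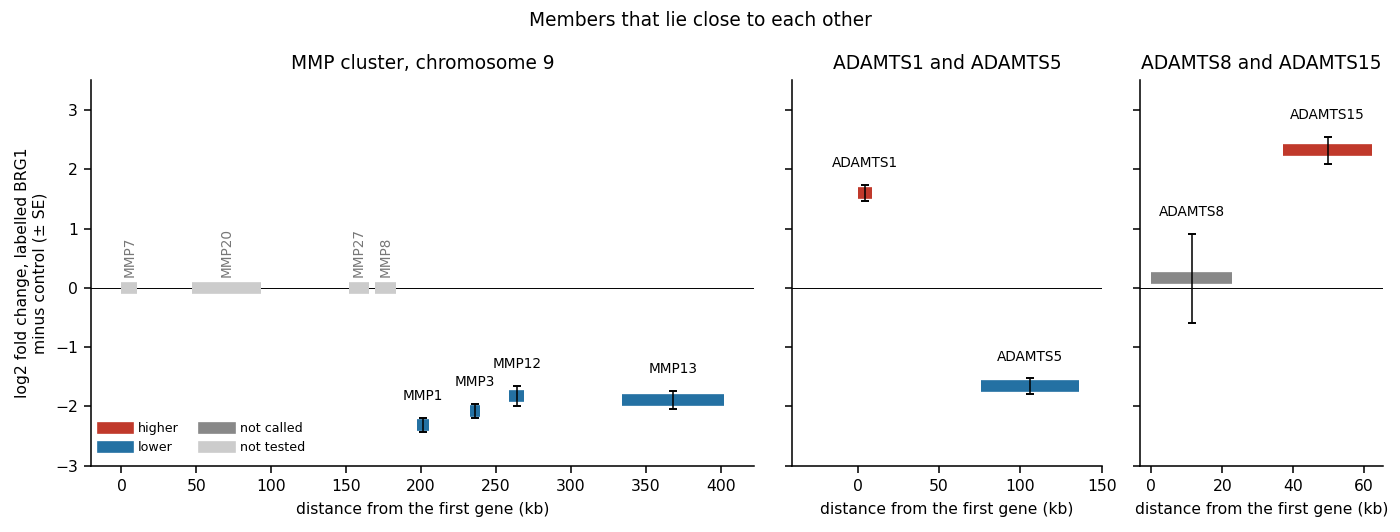
Members that lie near each other, drawn by distance in kb from the first gene of each panel (x axis), with bars as long as the gene and placed at its log2 fold change ± SE (y axis); genes with too few reads to test are drawn in light grey at 0. MMP1, MMP3, MMP12 and MMP13 lie between -2.32 and -1.82, whereas ADAMTS1 and ADAMTS5 lie on opposite sides of 0.

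The gelatinase MMP2, which digests denatured collagen and basement membrane, did not pass. It was at 4959 and 5781 CPM in the controls and 6232 and 6289 CPM in the libraries labelled BRG1 (0.22 ± 0.12; 95% interval -0.04 to 0.48; adjusted p = 0.160). It passed as higher with library size alone (0.45; adjusted p = 0.00755). The same held with each library's trend with gene length on the genome removed (0.24; adjusted p = 0.0331). Its value was 0.11 without control 1 and 0.32 without control 2, in fits that take the spread from the libraries labelled BRG1 alone. MMP2 held 45.7% to 75.1% of all MMP reads in a library, the highest share being in the libraries labelled BRG1. The MMP rows summed to 10857 and 11324 CPM in controls and 8334 and 8377 CPM in the libraries labelled BRG1. Without MMP2 these sums were 5898 and 5544 CPM against 2101 and 2087 CPM, a ratio of 0.366. MMP1 alone went from 3920 ± 363 to 788 ± 17.8 CPM (SD, n = 2). MMP9, the other gelatinase, had at most 1 read in a library.

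The membrane-type MMPs moved in both directions. These 6 enzymes are held at the cell surface by a transmembrane segment or a lipid anchor. Of them 4 rose while 1 fell, where 21.0% and 23.6% of all genes tested did. MMP14, the collagenase of the fibroblast surface and the activator of MMP2, was at 1252 and 1429 CPM in the controls and 1047 and 1060 CPM in the libraries labelled BRG1 (-0.35 ± 0.11; adjusted p = 0.0211). That call was lost with library size alone (-0.12; adjusted p = 0.389), with the gene length trend removed (-0.15; adjusted p = 0.225) and without library 1 or library 2 labelled BRG1, where the value stayed at -0.34 and -0.36. MMP15 was at 2.14 and 3.71 CPM against 7.70 and 8.04 CPM (1.43 ± 0.26; adjusted p = 0.000421), and MMP16 at 23.4 and 25.6 CPM against 32.3 and 30.7 CPM (0.36 ± 0.13; adjusted p = 0.0306). The MMP16 call was lost in 5 of 13 alternatives, among them DESeq2 (adjusted p = 0.0686) and removal of the gene length trend (0.07; adjusted p = 0.680).

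The lipid-anchored MMP17 rose from 8 reads in each control to 99 and 97 reads in the libraries labelled BRG1. Its controls were under 10 reads, so it could enter the test only through the group where it was high. In CPM these were 0.229 and 0.249 against 2.52 and 2.59, a log2 fold change of 3.40 ± 0.51 (adjusted p = 8.01e-05), with a 95% interval from 2.32 to 4.52. MMP25, anchored in the same way, had 18 and 8 reads in the controls and 63 and 38 in the libraries labelled BRG1 (0.514 and 0.249 CPM against 1.61 and 1.02 CPM; 1.76 ± 0.63; adjusted p = 0.0336). That call was lost with DESeq2, without control 2 and without either library labelled BRG1. MMP24 had 11 to 24 reads per library, its groups overlapped, and its 95% interval ran from -1.89 to 1.11.

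Among the remaining MMPs, MMP19 was at 93.0 and 99.3 CPM in the controls and 74.1 and 74.8 CPM in the libraries labelled BRG1 (-0.37 ± 0.10; adjusted p = 0.00756). It is a widely expressed secreted MMP, and its call was lost with library size alone (-0.14; adjusted p = 0.258), with the gene length trend removed (-0.10; adjusted p = 0.456) and without library 1 or library 2 labelled BRG1, where the value stayed at -0.36 and -0.38. MMP11, a stromelysin activated inside the cell, overlapped between the groups, at 66.4 and 84.3 CPM against 69.2 and 73.0 CPM (-0.08 ± 0.12; 95% interval -0.34 to 0.17). Its value was -0.25 without control 1 and 0.08 without control 2. MMP28 differed more between the controls, with 14 and 1 reads, than between the groups. Of 14 MMPs tested, 4 rose and 6 fell, where 21.0% and 23.6% of all genes tested did. Their median log2 fold change was -0.22, against 0.02 over all genes tested, and it depended on the processing and on the genes taken in. With library size alone it was 0.01, against 0.24 over all genes. With DESeq2 it was 0.05, and without a filter on low counts 0.04, both as over all genes. Each covers 18 MMPs, among them those with too few reads to be among the 14. Over those 14 the middle values with DESeq2 were -0.36 (MMP14) and -0.10 (MMP11). With the gene length trend removed the median of the 14 was -0.01, against 0.0003 over all genes in that fit.

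**Figure D3:**
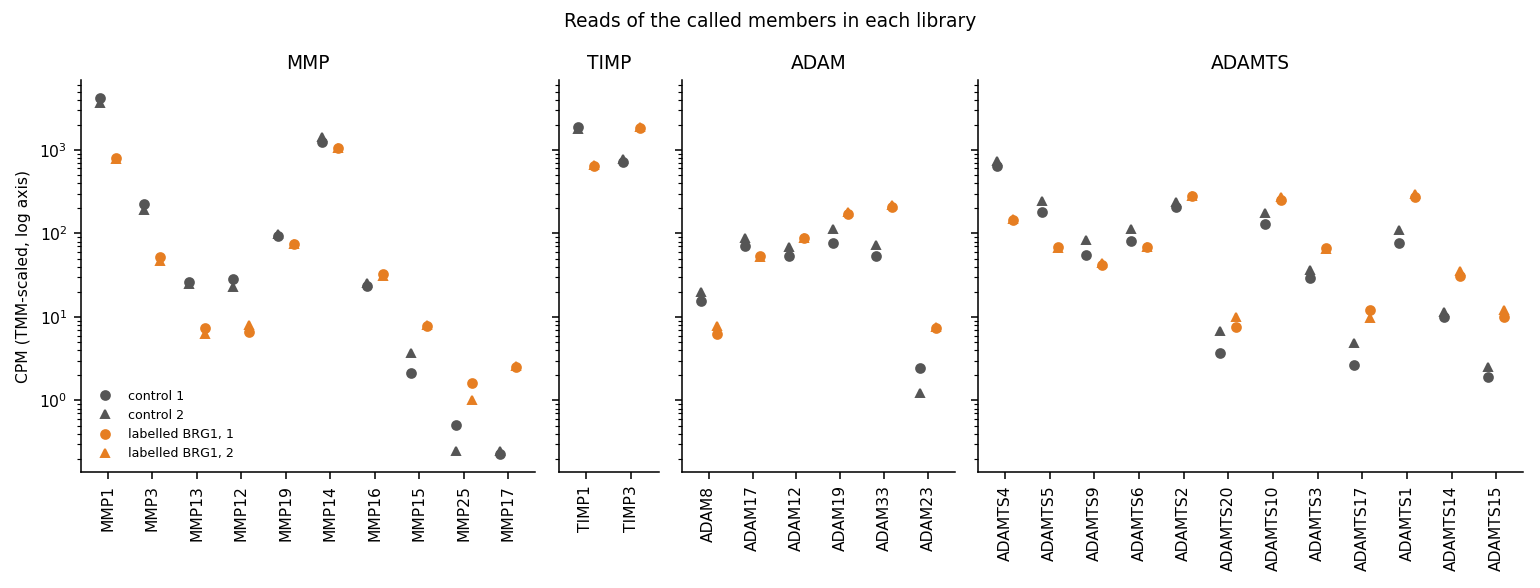
Level of each called member in each library, in CPM scaled by TMM on a log axis, grouped by subfamily and ordered by log2 fold change; grey symbols are controls and orange symbols libraries labelled BRG1, with circles for library 1 and triangles for library 2. For all 30 genes both orange symbols lie on one side of both grey symbols.

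The inhibitors TIMP1 and TIMP3 moved in opposite directions. TIMP1, a soluble inhibitor of most secreted MMPs, was at 1905 and 1775 CPM in the controls and 636 and 653 CPM in the libraries labelled BRG1 (-1.51 ± 0.11; adjusted p = 6.58e-08). TIMP3, which stays bound to the matrix and also blocks ADAM17 and the aggrecanases, was at 719 and 789 CPM against 1817 and 1866 CPM (1.29 ± 0.11; adjusted p = 3.76e-07). Both calls held in all 13 alternatives, with log2 fold changes from -1.58 to -1.14 for TIMP1 and from 1.20 to 1.51 for TIMP3. Because one fell while the other rose, the summed TIMP level was 2624 and 2565 CPM in controls and 2453 and 2519 CPM in the libraries labelled BRG1, and the share of TIMP3 in it ranged from 27.4% to 74.1%. TIMP4, a TIMP of restricted expression, had 2 and 6 reads in the controls and 16 and 23 in the libraries labelled BRG1 (0.0571 and 0.187 CPM against 0.408 and 0.614 CPM; 2.05 ± 0.91; adjusted p = 0.0753), and passed with library size alone (adjusted p = 0.0487) and with the gene length trend removed (adjusted p = 0.0447). Its controls too were under 10 reads, so it entered the test only through the group where it was high. TIMP2 was not analysed here.

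All 3 TIMP genes lie inside the RefSeq span of a synapsin gene: TIMP1 (chromosome X, 42103251 to 42106289) in SYN1, TIMP3 (chromosome 5, 12185816 to 12242599) in SYN3 and TIMP4 (chromosome 13, 68179803 to 68191199) in SYN2. Reads counted for the synapsins were few beside those of TIMP1 and TIMP3, with 27 to 81 per library for SYN1 and at most 1 for SYN3. SYN2 had 1 to 13 reads, near the level of TIMP4, so the source of those few reads is less sure. No label or header says whether the counts used strand.

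Among the ADAMs, the shedding enzyme ADAM17 fell and ADAM10 showed no detectable change. ADAM17, the main sheddase of tumour necrosis factor and of several epidermal growth factor receptor ligands, was at 70.9 and 87.8 CPM in the controls and 54.3 and 51.7 CPM in the libraries labelled BRG1 (-0.58 ± 0.12; adjusted p = 0.000901). ADAM10, the main sheddase of Notch receptors, was at 82.0 and 86.1 CPM against 84.9 and 82.8 CPM, with overlapping groups and a 95% interval of the log2 difference from -0.22 to 0.21. ADAM8, a sheddase known from leucocytes and inflamed tissue, fell from 15.5 and 19.7 CPM to 6.25 and 7.85 CPM (-1.32 ± 0.18; adjusted p = 2.89e-05). The calls of ADAM17 and ADAM8 held in all 13 alternatives.

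ADAM33, first known as an asthma susceptibility gene of airway fibroblasts and smooth muscle, rose from 53.3 and 72.4 CPM to 208 and 219.5 CPM (1.77 ± 0.13; adjusted p = 6.82e-08). ADAM19, a protease that can shed neuregulins, rose from 77.8 and 112 CPM to 171 and 182 CPM (0.90 ± 0.14; adjusted p = 0.000103). ADAM12, which cuts insulin-like growth factor binding proteins, was at 54.2 and 69.7 CPM against 88.0 and 88.9 CPM (0.52 ± 0.12; adjusted p = 0.00274), a value that was 0.34 without control 1 and a call that was lost when the gene length trend was removed (0.21; adjusted p = 0.102). The smooth muscle and myofibroblast markers that rose beside these genes are given above.

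ADAM23 and ADAM11 belong to the ADAMs without protease activity, which act in cell adhesion. ADAM23 rose from 2.43 and 1.21 CPM to 7.37 and 7.53 CPM (2.02 ± 0.30; adjusted p = 6.30e-05). ADAM11 was at 0.828 and 0.654 CPM against 1.66 and 1.55 CPM (1.11 ± 0.49; adjusted p = 0.0799) and passed with library size alone (adjusted p = 0.0355) and with a stricter filter on reads (adjusted p = 0.0333). ADAM9 and ADAM15, both broadly expressed sheddases, did not pass (0.13 ± 0.11 and 0.27 ± 0.14), though each passed as higher with library size alone (0.35 and 0.50). ADAM9 was at 0.22 without control 2 and at 0.02 without control 1. ADAM15 passed also with the gene length trend removed (0.48; adjusted p = 0.00901). It was at 0.28 without control 1 but at 0.04 without library 1 labelled BRG1. Of 10 ADAMs tested, 4 rose, 2 fell and 4 were not called, where 21.0% of all genes tested rose and 23.6% fell. With library size alone 7 ADAMs rose and 2 fell, where 33.0% and 14.6% of all genes did. The other 10 ADAM genes were below 10 reads in all libraries or passed it in 1 only, as did ADAM22 with 23 reads and ADAM28 with 16.

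**Figure D4:**
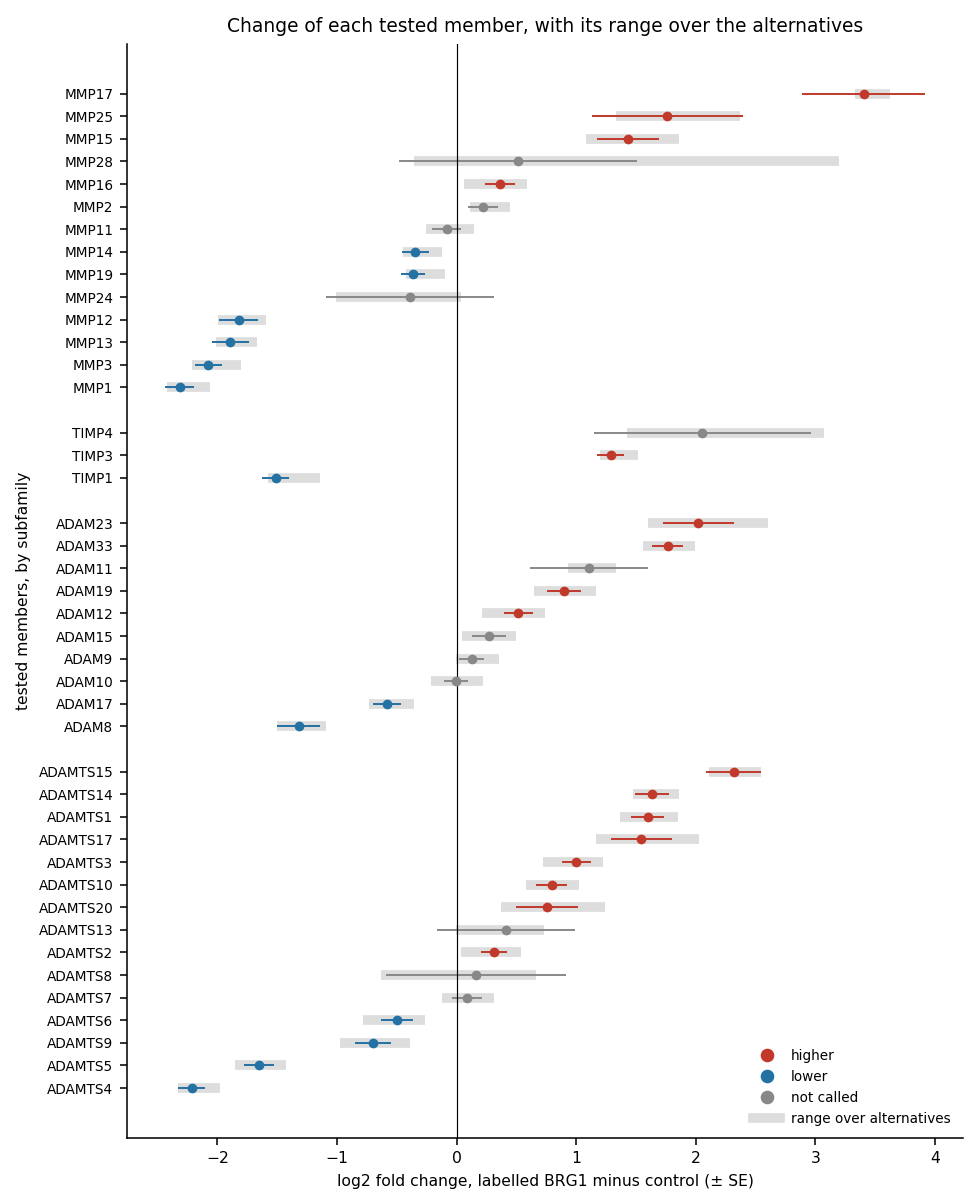
Log2 fold change ± SE of each of the 42 tested members (libraries labelled BRG1 minus control, n = 2 per group), coloured by call, with the grey bar spanning the lowest and highest value over the alternative analyses. Wide grey bars that reach 0 belong to members that were not called, such as MMP28 and ADAMTS8.

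The ADAMTS enzymes that cut proteoglycans split into 3 that rose and 3 that fell among 7 tested, where 21.0% and 23.6% of all genes did. ADAMTS4 and ADAMTS5, the main aggrecanases, both fell. ADAMTS4 was at 635 and 736 CPM in the controls and 146 and 149 CPM in the libraries labelled BRG1 (-2.22 ± 0.11; 4.65-fold lower; adjusted p = 2.49e-09). ADAMTS5 was at 182 and 242 CPM against 68.0 and 66.8 CPM (-1.65 ± 0.13; adjusted p = 1.07e-07). ADAMTS9, which cuts versican, was at 55.7 and 84.3 CPM against 42.1 and 44.1 CPM (-0.70 ± 0.15; adjusted p = 0.00164), and its value ranged from -0.98 without control 1 to -0.39 without control 2.

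ADAMTS1, which also cuts versican and restrains new vessels, rose from 77.6 and 109.8 CPM to 273 and 295 CPM (1.60 ± 0.14; adjusted p = 3.55e-07). It lies near ADAMTS5 on chromosome 13 (190277175 to 190285957, with ADAMTS5 at 190353019 to 190413110), with 67.1 kb between them, so these close members changed in opposite directions. ADAMTS15, another versican-cutting enzyme, rose from 1.89 and 2.52 CPM to 9.99 and 12.0 CPM (2.32 ± 0.23; 4.99-fold higher; adjusted p = 1.34e-06). Its neighbour ADAMTS8, 14.4 kb away on chromosome 9, had 10 to 26 reads per library and a 95% interval from -1.44 to 1.77. ADAMTS20 rose by less, from 5.19 ± 2.17 to 8.76 ± 1.67 CPM (SD, n = 2; 0.76 ± 0.26; adjusted p = 0.0273), and its call was lost in 4 of 13 alternatives, among them DESeq2 (adjusted p = 0.0589) and the fit without control 1 (0.37, against 1.24 without control 2).

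All 3 procollagen N-proteinases, which remove the amino-terminal propeptide of fibrillar procollagens, rose, where 21.0% of all genes tested did. ADAMTS14 went from 10.1 and 11.5 CPM to 31.4 and 35.7 CPM (1.64 ± 0.14; adjusted p = 4.20e-07), and ADAMTS3, which also activates the lymphatic growth factor VEGFC, from 29.5 and 36.8 CPM to 66.8 and 65.9 CPM (1.00 ± 0.12; adjusted p = 9.80e-06). ADAMTS2 was at 206 and 241 CPM in the controls against 277 and 279 CPM (0.31 ± 0.11; adjusted p = 0.0273), and that call was lost without library 1 or library 2 labelled BRG1, where the value stayed at 0.32 and 0.31, and with the gene length trend removed (0.04; adjusted p = 0.744), with a value of 0.20 without control 1. ADAMTS14 and ADAMTS3 held in all 13 alternatives.

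The relatives linked to fibrillin microfibrils moved in both directions. ADAMTS10 rose from 129 and 176 CPM to 254 and 274 CPM (0.79 ± 0.13; adjusted p = 0.000181) and ADAMTS17 from 2.66 and 4.86 CPM to 12.1 and 9.75 CPM (1.55 ± 0.25; adjusted p = 0.000169). ADAMTS6 was at 81.3 and 113 CPM against 68.2 and 69.1 CPM (-0.50 ± 0.13; adjusted p = 0.00641), a call lost with library size alone (-0.27; adjusted p = 0.109) and without library 1 labelled BRG1 (adjusted p = 0.0530), and a value that was -0.26 without control 2. ADAMTS7, which cuts the cartilage protein COMP, overlapped between groups (120.3 and 162 CPM against 148 and 152 CPM; 0.09 ± 0.13), and the von Willebrand factor protease ADAMTS13 had 22 to 51 reads per library and was not called. Of 15 ADAMTS genes tested, 8 rose and 4 fell, where 21.0% and 23.6% of all genes tested did. Their median was 0.41 on the log2 scale against 0.02 over all genes tested.

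The controls also differed from each other. In 14 of the 15 ADAMTS genes tested, control 2 lay above control 1, with a median log2 ratio of 0.43, whereas this was so in 48.4% of all genes tested (median -0.01). It was so in 30 of all 42 tested members (median 0.22), in 7 of 10 ADAMs (median 0.26) and in 7 of 14 MMPs (median -0.01). Between the libraries labelled BRG1 the median log2 ratio of the ADAMTS genes was 0.02. Greater spread between the controls was not limited to members. Over the genes tested, the chi-square of counts per degree of freedom was 38.9 between the controls and 5.34 between the libraries labelled BRG1. ADAMTS changes moved with the control used: ADAMTS1 was at 1.36 without control 1 and 1.85 without control 2, and ADAMTS5 at -1.85 and -1.45.

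**Figure D5:**
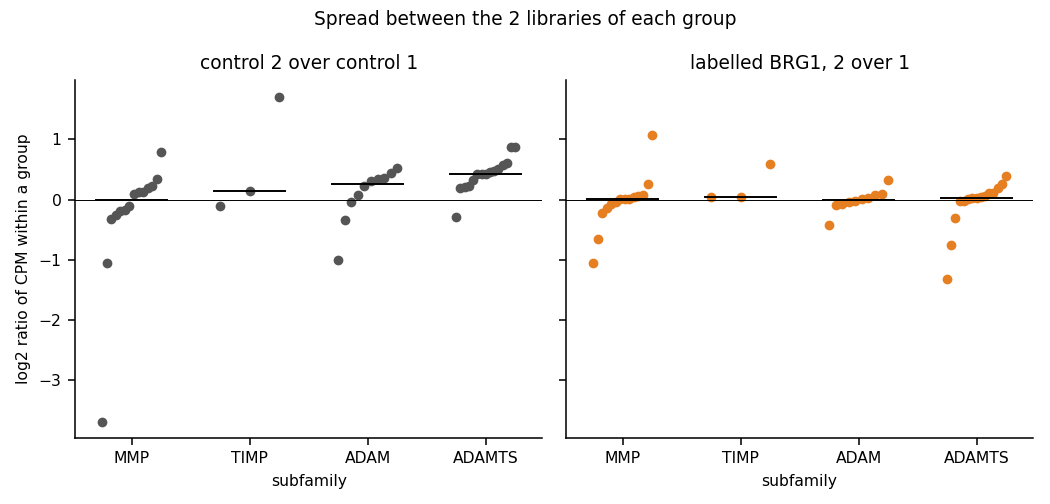
Log2 ratio of CPM between the 2 libraries of a group for each of the 42 tested members, by subfamily, with controls on the left and libraries labelled BRG1 on the right; the black line is the median. Of the 15 ADAMTS genes 14 lie above 0 between the controls, with a median of 0.43, and around 0 between the libraries labelled BRG1.

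Reads outside annotated genes made up 6.73% ± 0.87 of all reads in the controls and 10.4% ± 0.19 in those labelled BRG1 (SD, n = 2), and an exact two-sided permutation test of 2 against 2 libraries gave p = 0.33, the smallest it can give. Across the 11318 genes tested with a RefSeq span, the log2 fold change rose with the length of genome the gene covers (Spearman correlation 0.29, a description across genes that share libraries), and across the 42 members the correlation was 0.23. The median span was 75.1 kb for the ADAMTS genes tested and 18.1 kb for the MMPs. With that trend removed, 16 members were higher and 11 lower, where 21.5% and 24.0% of the genes in that fit were. RefSeq spans of 10 of the 42 overlap another protein-coding gene. Beside the TIMPs these are ADAM12 (with FANK1), ADAM17 (IAH1), ADAM19 (NIPAL4), ADAMTS1, ADAMTS6 (CENPK), ADAMTS7 (TBC1D2B) and ADAMTS13. Reads in the shared stretch could belong to either gene, or be left out of both counts. Reads listed apart from the gene counts as ambiguous made up 1.90% to 2.33% of a library. FANK1 and NIPAL4 had at most 37 and 157 reads per library, far below ADAM12 and ADAM19. IAH1 had 1147 to 1592 reads, of the same order as the 1936 to 2820 of ADAM17, and CENPK 79 to 109 against 2587 to 3615 for ADAMTS6. TBC1D2B had 21527 to 24988 reads. The part of these differences in the results was not tested.

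The 19 genes below the read limit included 8 with no read in any library: MMP20, ADAM2, ADAM20, ADAM21, ADAM29, ADAM30, ADAMTS18 and ADAMTS19. A count of 0 allows a level of up to 3 reads, or 0.0765 to 0.0934 CPM depending on the library, for counting error only. ADAMTS12, a relative of ADAMTS7, had 2 and 4 reads in the controls and 9 and 13 in the libraries labelled BRG1. ADAMTS16 had 4 to 13 reads per library, ADAM22 2 to 23, ADAM28 0 to 16, and ADAM7 and ADAM18 had 1 read each in all. ADAM32 had 0 reads in both controls and 6 and 8 in the libraries labelled BRG1.

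Other genes that act on these proteases were read from lists drawn up for this purpose, with earlier results of these data known. The shares called are therefore a description and do not test the lists. Median levels of the lists ran from 4.52 to 10.8 on the log2 CPM scale, against 4.15 for all genes tested. The part of level in these shares was not tested. Beside the 44.6% called over all genes tested, the share called was 42.9% of other inhibitors and clearance factors, 61.5% of AP-1, ETS and RUNX factors, 62.5% of ADAMTS substrates, 70.0% of ADAM10 and ADAM17 partners, 76.9% of their substrates, 80.0% of astacins and procollagen enhancers and 85.7% of cytokines and receptors. Of 4 convertases 2 were called, and all 6 ADAMTS-like genes tested were. The share for inhibitors was near that of all genes, and the lists hold 4 to 13 tested genes each. Among 4 proprotein convertases, which cut the propeptides of membrane-type MMPs, ADAMs and ADAMTS enzymes, FURIN fell from 437 and 503 CPM to 203 and 211 CPM (-1.19 ± 0.11; adjusted p = 6.35e-07), PCSK6 rose (0.85 ± 0.15; adjusted p = 0.000248) and the other two were not called. In plasminogen activation, which can start MMP proenzyme cleavage, the genes with the smallest adjusted p all fell. They were SERPINF2, the inhibitor of plasmin (-2.79 ± 0.12; adjusted p = 1.24e-09), SERPINB2, an inhibitor of plasminogen activators (-2.46 ± 0.11; adjusted p = 1.34e-09), and PLAUR, the urokinase receptor (-1.43 ± 0.11; adjusted p = 7.09e-08). Both serpins limit plasmin or its activators, whereas PLAUR gathers urokinase at the cell surface. The activators PLAU (-0.21 ± 0.10) and PLAT (0.15 ± 0.11) were not called.

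Among 7 other inhibitors and clearance factors tested, 2 rose and 1 fell. A2M, a trap inhibitor of proteases of all classes, rose from 1.29 and 1.59 CPM to 9.64 and 11.8 CPM (2.90 ± 0.24; adjusted p = 2.43e-07). RECK, a membrane-anchored inhibitor of MMPs, rose from 23.5 and 27.9 CPM to 57.7 and 59.3 CPM (1.19 ± 0.12; adjusted p = 1.62e-06). SPOCK3, a proteoglycan of the testican family, fell (-1.16 ± 0.10).

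Of 10 partners of ADAM10 and ADAM17 maturation, 5 fell and 2 rose. RHBDF2, the inactive rhomboid that carries ADAM17 to the surface, fell from 19.5 and 25.9 CPM to 12.2 and 12.0 CPM (-0.91 ± 0.16; adjusted p = 0.000308), and the tetraspanin partners of ADAM10 TSPAN14 and TSPAN33 by 0.45 and 1.07 on the log2 scale. TSPAN17 (-0.33 ± 0.12) and FRMD8 (-0.38 ± 0.10) fell too, and TSPAN10 (0.88 ± 0.27) and PACS2 (0.35 ± 0.10) rose. RHBDF1 was not called (0.07 ± 0.11). Among 13 surface substrates of ADAM10 and ADAM17 tested, 9 fell and 1 rose, with a median of -0.88. The growth factors EREG and AREG, ligands of the epidermal growth factor receptor, fell by 1.72 and 1.44 on the log2 scale (adjusted p = 1.35e-08 and 8.29e-08), and CD44, a hyaluronan receptor, by 0.78. The one that rose was IL6R, a receptor of interleukin 6 (0.94 ± 0.31).

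Of 6 ADAMTS-like genes tested, which share the ancillary domains of ADAMTS enzymes but lack the protease, 5 rose and 1 fell. ADAMTSL1 rose from 78.9 and 112 CPM to 276 and 284 CPM (1.55 ± 0.14; adjusted p = 4.17e-07) and THSD4 by 1.19 ± 0.18, with ADAMTSL3, ADAMTSL5 and PAPLN between 0.80 and 1.06, whereas ADAMTSL4 fell (-1.27 ± 0.11; adjusted p = 4.20e-07). Among 8 ADAMTS substrates tested (collagens, versican, COMP and von Willebrand factor), 5 rose and none was called lower. The rises were led by COL5A1 (1.34 ± 0.13), COL1A1 (1.04 ± 0.13) and COL1A2 (0.95 ± 0.13) and followed by COL5A2 (0.66 ± 0.12) and COMP (0.52 ± 0.14). VCAN, which encodes versican, was not called (0.24 ± 0.14; 95% interval -0.06 to 0.55). COL3A1 (-0.21 ± 0.12) and VWF (-1.28 ± 0.52) were lower in both libraries labelled BRG1 than in both controls but were not called. At the other end of the procollagen chain, BMP1, the C-proteinase, fell (-0.56 ± 0.11; adjusted p = 0.000924), its relative TLL2 rose (1.79 ± 0.35), and its enhancers PCOLCE and PCOLCE2 rose (0.99 ± 0.10 and 1.16 ± 0.11).

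Of 7 genes tested from a list of cytokines and receptors linked to MMP expression, 6 fell and none rose. IL1A fell from 2163 and 1963 CPM to 349 and 343 CPM (-2.58 ± 0.12). IL6 went from 2226 and 1995 CPM to 443 and 466 CPM (-2.22 ± 0.12). IL1B and BSG, also on the list, were not analysed here. Whether the listed genes raise or lower the MMPs that fell was not tested. TGFB1 and TGFB2 fell by 0.44 and 0.57 on the log2 scale, and TNF, which fell by 2.14 ± 0.64, stood on the substrate list as well. TNF had few reads, 39 and 50 in the controls and 10 and 13 in the libraries labelled BRG1. The 13 AP-1, ETS and RUNX factors tested, which bind MMP promoters, were mixed, with 3 higher and 5 lower and a median of -0.03. FOSL1, an AP-1 subunit, fell by 1.58 on the log2 scale, while FOS, another subunit, rose from 54.7 and 80.6 CPM to 111 and 137 CPM (0.88 ± 0.15; adjusted p = 0.000285). RUNX1 and RUNX2 rose by 0.62 ± 0.10 and 0.43 ± 0.11, and JUN, JUNB, ETS1 and ELK1 fell by 0.54, 0.27, 0.43 and 0.52 on the log2 scale.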

How the data were processed

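Each of the 4 deposited files gives 1 library as raw counts, whole numbers with no scaling, for genes under Ensembl identifiers. The build was Sscrofa11.1, per the submitters' processing notes, which also name STAR, Cufflinks, SAMtools, FastQC, edgeR and DESeq2 without their roles. The read counter, strand setting and annotation release are not given in the sources used here. Closing rows that name no gene were left out. All genes were fitted together in edgeR 4.0.16 (R 4.3.3): filterByExpr (minimum count 10, minimum total 15), TMM (factors 0.918 to 1.08), quasi-likelihood F test with a prior count of 0.125, and Benjamini-Hochberg adjustment with a threshold of 0.05. SEs were taken as the size of the unshrunk log2 fold change over the root of F. The fit was tested on simulated data that gave both groups the same spread, so that test does not cover a spread that differs between groups. The trend with gene length on the genome (RefSeq span) was fitted by lowess (0.3 of the genes) in the 77.4% of genes tested that had a span, and removed as an offset. Coordinates and spans are from RefSeq on Sscrofa11.1, matched by symbol for 57 of 61 members. DESeq2 1.42.0 and limma-voom (limma 3.58.1) were alternatives. The members and gene lists were chosen with earlier results of these data known. Every member past the threshold is named, with values in every library for those at least 2-fold changed or with a mean of 10 CPM. Up to 3 genes of each other list are named by smallest adjusted p, and others where a result turns on them, chosen after their values were seen. One result of the plasminogen list, and the counts of that list, are not reported here.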

Additional observations from a re-analysis of the deposited data

How the results depend on the processing

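Of the 30 called members 22 kept direction and call in each of up to 13 alternative fits, 8 lost the call in at least 1 (MMP14, MMP16, MMP19, MMP25, ADAM12, ADAMTS2, ADAMTS6 and ADAMTS20), and none changed sign. Of the 12 not called, 7 gained a call in at least 1. At an adjusted p of 0.01 in the original fit 13 were higher and 12 lower, where 14.1% and 17.9% of all genes tested were. With DESeq2 14 were higher and 13 lower, in a fit that called 36.3% of all genes, against 44.6% in the original fit. MMPs called higher numbered 4, but 2 with DESeq2, 2 at an adjusted p of 0.01 and 2 to 5 with 1 library left out. TIMPs called higher numbered 1, but 2 with library size alone or with the gene length trend removed. ADAMs called higher numbered 4, but 7 with library size alone, a fit that called 33.0% of all genes higher, against 21.0% in the original fit. Without 1 library, counts ran from 13 to 19 higher and 10 to 14 lower for all members, MMPs lower 4 to 7, ADAMs higher 4 to 5, ADAMTS genes higher 6 to 9 and lower 3 to 4.

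Reversed values were all in members that were not called. MMP11 was at 0.14 with library size alone and 0.14 with the gene length trend removed, and ran from -0.25 without control 1 to 0.083 without control 2. ADAM10 was at 0.22 with library size alone and 0.024 with a filter of 50 reads, and ran from -0.046 to 0.015 with 1 library left out. With the gene length trend removed ADAM9 was at -0.0068 and ADAMTS7 at -0.040. With 1 library left out, ADAMTS7 ran from -0.12 to 0.30, MMP24 from -1.01 to 0.038, MMP28 from -0.36 to 3.20, ADAMTS8 from -0.63 to 0.67 and ADAMTS13 from -0.0086 to 0.73. The cause was not tested.

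With the replicate number as a block, 17 members were higher and 13 lower, as without it, and all genes called numbered 6694 against 6512. Deviations of same-numbered libraries correlated at -0.04, and the labels do not say that the numbers pair them. The search for promoter letters was not run, since no promoter sequences were used here. Leaving out 1 of 2 libraries takes the spread from the other group, so the lone library is assumed to vary like it. The share of all genes called also moved with the library left out, so member counts in these fits do not describe the members alone.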

Other observations

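MMP23B, a membrane MMP whose symbol ends in a letter and so falls outside the rule that chose the members, was at 148 and 140.5 CPM in the controls and 214 and 189 CPM in the libraries labelled BRG1 (log2 fold change 0.49 ± 0.10; adjusted p = 0.00149, edgeR quasi-likelihood test). It was singled out after its values were seen.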
